A study of Danio rerio with 4 samples.

Results

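Neutrophils and macrophages are the main phagocytes of the innate immune system. Both descend from blood progenitors, and both patrol and adhere to vessels. Neutrophils carry granules filled with proteases, lysozyme and peroxidase, while macrophages take up debris through scavenger receptors and lysosomes and secrete complement C1q. In zebrafish their transcripts serve as standard markers of the cells. When vessel cells are sorted from whole fish, such transcripts show whether phagocyte RNA came with them.

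The list of phagocyte markers held 8 genes, matched to the table by symbol. For neutrophils these were npsn (nephrosin, an astacin-family metalloprotease), lyz (lysozyme, which cleaves bacterial cell walls) and mpx (myeloperoxidase). For macrophages they were mfap4 (a fibrinogen-domain protein used as a macrophage marker in zebrafish), cd68 (a lysosomal membrane glycoprotein), c1qc (the C chain of complement C1q) and mpeg1.1 (a pore-forming protein of macrophages). The last, rac2, encodes a GTPase of leukocytes in general that neutrophils need for migration. Symbols matched 6 of the 8 genes in 11 of the 31951 entries of the table, because 6 entries carry the symbol MFAP4. No entry carried the symbol mpx or mpeg1.1. A filter of at least 1 FPKM in at least 2 libraries left 7 of the 11 entries for testing, among them 2 of the 6 MFAP4 entries.

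RNA came from cells sorted by red fluorescence from dissociated zebrafish grown as embryos, whose age is not given in the sources used here. All fish carried kdrl:mcherry, a reporter under the promoter of the endothelial VEGF receptor gene kdrl. The kdrl:cxcr1 group (2 libraries) carried in addition cxcr1, a receptor gene for the chemokine CXCL8, under the same promoter. The fish labelled wt lacked kdrl:cxcr1 (2 libraries). Each of 2 independent clutches gave 1 library per genotype. The labels do not say how many fish a clutch held.

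Levels are FPKM, fragment numbers corrected for the length of the transcript and the size of the library, which allow genes of different length to be compared. The table holds no counts and its low values showed no whole-read steps, so depth is unknown and no counting error is given. Of all entries, 43.5% and 31.9% were listed at 0 in kdrl:cxcr1 clutches 2 and 1, against 42% and 31.9% in wt clutches 2 and 1. Of 16 listed endothelial genes 11 matched a symbol, and none of these was at 0 in any library. As every library is of sorted cells, this does not measure endothelial enrichment. kdrl itself read 157 and 140 FPKM in kdrl:cxcr1 clutches 2 and 1, against 274 and 128 FPKM in wt clutches 2 and 1. The row cxcr1 read 0 and 12.8 FPKM in kdrl:cxcr1 clutches 2 and 1, against 0 and 8.14 FPKM in wt clutches 2 and 1, so it did not separate the genotypes, and every direction given here is between libraries as labelled.

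The neutrophil markers were among the most abundant transcripts of the sorted cells. npsn read 583 and 572 FPKM in kdrl:cxcr1 clutches 2 and 1, against 292 and 132 FPKM in wt clutches 2 and 1. Both kdrl:cxcr1 libraries lay above both wt libraries. The entry stood at percentile 97.2 of tested genes or higher in each of the 4 libraries. Its mean was 578 ± 8.1 FPKM in kdrl:cxcr1 and 212 ± 113 FPKM in wt (SD, n = 2 each), a ratio of 2.72.

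lyz read 703 and 317 FPKM in kdrl:cxcr1 clutches 2 and 1, against 421 and 310 FPKM in wt clutches 2 and 1. The genotypes overlapped, because kdrl:cxcr1 clutch 1 lay below wt clutch 2. Its means were 510 ± 273 FPKM and 365 ± 78.3 FPKM. Divided by clutch, lyz averaged 562 ± 200 FPKM in clutch 2 and 313 ± 4.89 FPKM in clutch 1, and these ranges did not overlap. The balance between these granule genes also moved from library to library. lyz over npsn was 1.21 and 0.554 in kdrl:cxcr1 clutches 2 and 1, against 1.44 and 2.34 in wt clutches 2 and 1.

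**Figure D1:**
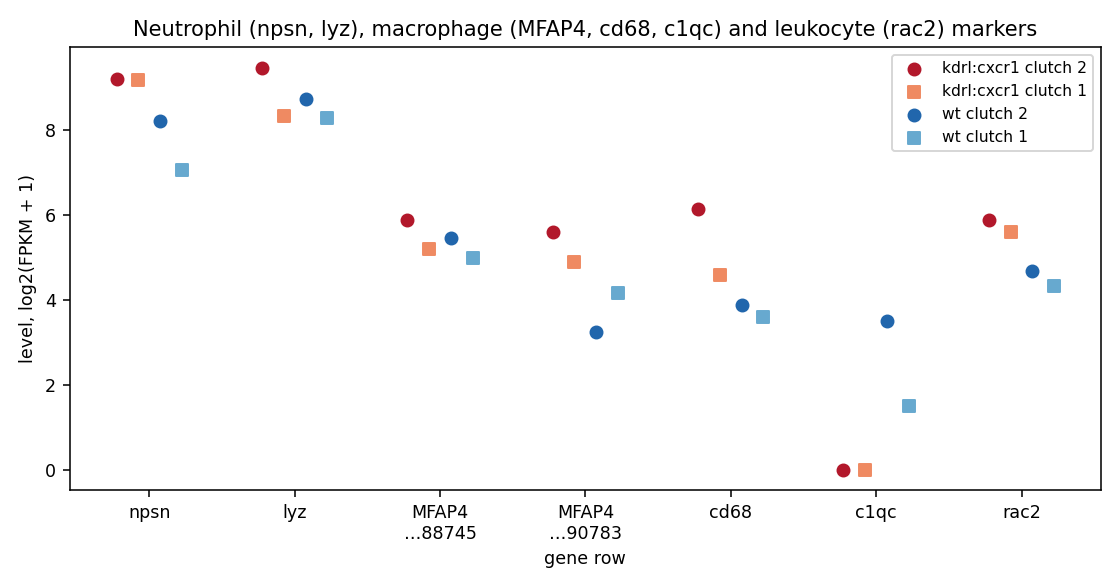
Level of the 7 tested marker entries in each library, as log2(FPKM + 1), with 1 point per library (circles clutch 2, squares clutch 1; red kdrl:cxcr1, blue wt). The points for npsn, MFAP4 ENSDARG00000090783, cd68 and rac2 are higher in both kdrl:cxcr1 libraries than in both wt libraries, while c1qc is at 0 in both kdrl:cxcr1 libraries.

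The listed macrophage markers were lower in level than npsn and lyz, and their entries did not move together. cd68 read 69.4 and 23.1 FPKM in kdrl:cxcr1 clutches 2 and 1, against 13.8 and 11 FPKM in wt clutches 2 and 1. The kdrl:cxcr1 libraries were again above both wt libraries, although their own spread was wide (46.2 ± 32.7 FPKM, against 12.4 ± 1.97 FPKM in wt). The highest value, in kdrl:cxcr1 clutch 2, stands apart from the other 3 libraries.

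mfap4 rested on a pair of entries, and the other 4 MFAP4 entries read below 1 FPKM in every library. ENSDARG00000088745 read 57.8 and 35.9 FPKM in kdrl:cxcr1 clutches 2 and 1, against 42.7 and 30.8 FPKM in wt clutches 2 and 1, with overlapping genotypes. ENSDARG00000090783 read 47.6 and 28.7 FPKM in kdrl:cxcr1 clutches 2 and 1, against 8.46 and 16.8 FPKM in wt clutches 2 and 1, without overlap. The first entry exceeded the second by 1.21 and 1.25 times in kdrl:cxcr1 clutches 2 and 1, against by 5.05 and 1.83 times in wt clutches 2 and 1. RefSeq (assembly GRCz12tu) lists 13 mfap4 genes on 1 chromosome within a run of 26 protein-coding genes. Their sequences were not compared here. Whether the authors' counting could split reads between such genes is not given in the sources used here, so the division between MFAP4 entries is uncertain.

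Among the tested markers, c1qc was the one entry with lower values in kdrl:cxcr1. Its entry was 0 for kdrl:cxcr1 in either clutch, against 10.4 and 1.84 FPKM in wt clutches 2 and 1. C1q is assembled from A, B and C chains, and the entries for the other chains did not follow c1qc. c1qa read 12 and 0 FPKM in kdrl:cxcr1 clutches 2 and 1, against 0 and 2.15 FPKM in wt clutches 2 and 1. c1qb read 14.8 and 6.77 FPKM in kdrl:cxcr1 clutches 2 and 1, against 0 and 7.81 FPKM in wt clutches 2 and 1. Thus kdrl:cxcr1 clutch 2 listed c1qa and c1qb without c1qc, and wt clutch 2 listed c1qc without either. Summed over the chains, FPKM was 26.7 and 6.77 in kdrl:cxcr1 clutches 2 and 1, against 10.4 and 11.8 in wt clutches 2 and 1. Whether a 0 in this table marks an absent transcript was not tested. ptprc, the gene of the leukocyte surface phosphatase CD45, was listed at 0 in all 4 libraries, while the leukocyte actin-binding gene CORO1A read 89.2 FPKM or more.

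**Figure D2:**
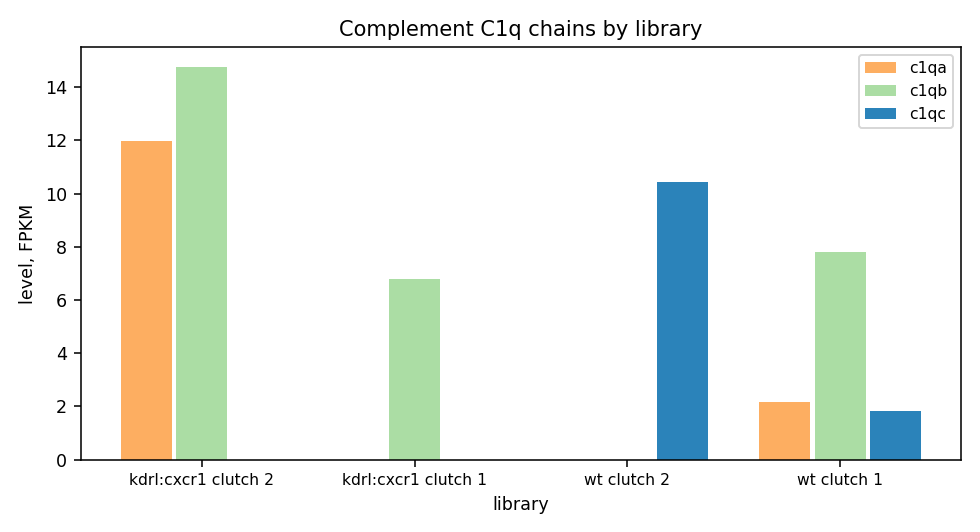
Level in FPKM of the complement genes c1qa, c1qb and c1qc in each library, 1 bar per gene (bars absent at 0). The c1qc bars appear in the wt libraries alone, at 10.4 and 1.84 FPKM, whereas c1qb is present in kdrl:cxcr1 clutches 2 and 1 at 14.8 and 6.77 FPKM and absent in wt clutch 2.

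rac2, the leukocyte GTPase gene, read 57.4 and 47.1 FPKM in kdrl:cxcr1 clutches 2 and 1, against 24.5 and 19.1 FPKM in wt clutches 2 and 1. The means were 52.3 ± 7.32 FPKM and 21.8 ± 3.8 FPKM, a ratio of 2.4, and the genotypes did not overlap. The difference in log2(FPKM + 1) was nearly equal in the clutches, 1.2 in clutch 2 and 1.26 in clutch 1.

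The genotype comparison asked whether these markers separated kdrl:cxcr1 from wt. On the log2(FPKM + 1) scale, the difference was 1.55 (SE 0.45) for npsn, 1.23 (SE 0.36) for rac2, 1.63 (SE 0.59) for cd68, and 1.55 (SE 0.50) for MFAP4 ENSDARG00000090783. It was 0.39 (SE 0.48) for lyz, 0.32 (SE 0.40) for MFAP4 ENSDARG00000088745 and -2.51 (SE 0.88) for c1qc. None of the 7 entries passed limma's moderated test with Benjamini-Hochberg adjustment over all 17723 genes, with adjusted p of 0.699 to 0.873 (2 genes passed over the whole table, 0.0113%). Unadjusted p-values under 0.05 (6.8% of all genes) were those of npsn, rac2, cd68, MFAP4 ENSDARG00000090783 and c1qc, the entries whose genotypes did not overlap. As the markers were chosen with earlier results of these data known, this share against all genes is no support for a difference.

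Among the tested markers, 4 entries had both kdrl:cxcr1 libraries above both wt libraries (26% of all tested genes did), and 1 entry, c1qc, had both below (13.6%). As c1qc was at 0 in kdrl:cxcr1, it passed the filter through wt alone, so its direction was fixed by the filter and is no support for a difference. The median log2 difference of all tested genes was 0.16, and it was -0.03 after median-of-ratios scaling. Relative to the median gene, npsn stood at 1.39, cd68 at 1.47, rac2 at 1.07, MFAP4 ENSDARG00000090783 at 1.39, lyz at 0.23 and MFAP4 ENSDARG00000088745 at 0.16. With 1 library left out, npsn ranged from 0.98 to 2.12, rac2 from 1.06 to 1.4, cd68 from 0.85 to 2.4, MFAP4 ENSDARG00000090783 from 1.09 to 2.01 and c1qc from -3.51 to -1.51. lyz turned to -0.19 and MFAP4 ENSDARG00000088745 to -0.02 without kdrl:cxcr1 clutch 2. An exact two-sided permutation of 2 against 2 libraries cannot give a p below 0.33. In sorted bulk RNA, a difference in the number of phagocytes and a difference in RNA per phagocyte cannot be told apart.

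**Figure D3:**
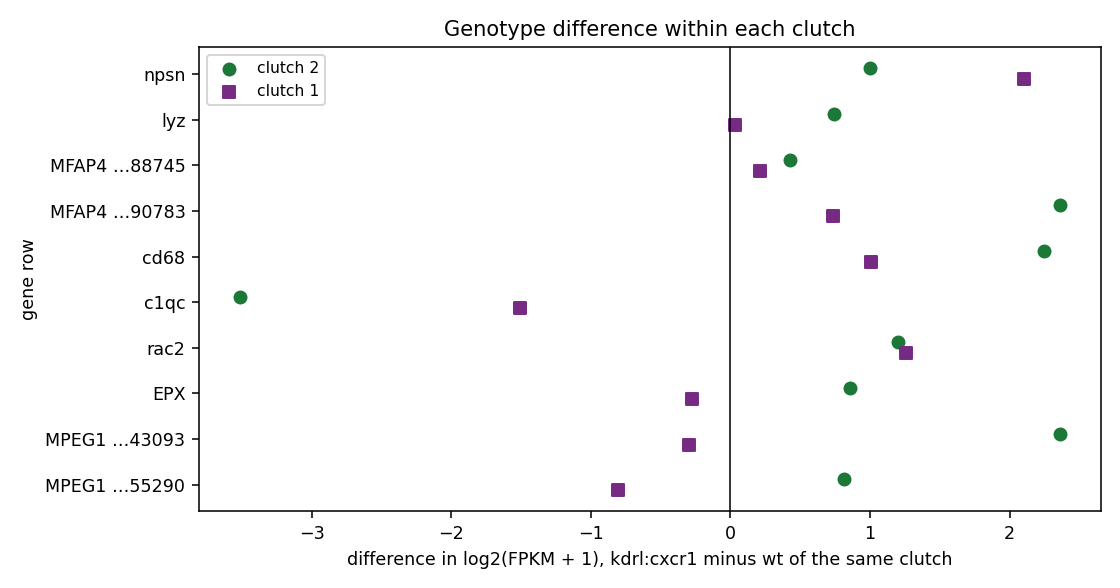
Difference in log2(FPKM + 1) between kdrl:cxcr1 and wt of the same clutch for the tested marker entries and for the entries EPX and MPEG1 (circles clutch 2, squares clutch 1). Points right of 0 are higher in kdrl:cxcr1; EPX and both MPEG1 entries lie on the right in clutch 2 and on the left in clutch 1.

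Entries under related names gave a partial view of the unmatched markers. The table's symbol EPX, a granule peroxidase of eosinophils in mammals, stood on an entry that read 357 and 319 FPKM in kdrl:cxcr1 clutches 2 and 1, against 196 and 385 FPKM in wt clutches 2 and 1. It was as abundant as lyz in kdrl:cxcr1 clutch 1 and its genotypes overlapped (log2 difference 0.29, SE 0.42, limma adjusted p = 0.889). Whether this entry is mpx was not settled. A second entry, epx, was at 0 in all 4 libraries.

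MPEG1, a synonym of mpeg1.1 in RefSeq, stood on 3 entries, of which 1 was at 0 throughout. ENSDARG00000055290 read 55.3 and 16.4 FPKM in kdrl:cxcr1 clutches 2 and 1, against 31 and 29.4 FPKM in wt clutches 2 and 1. ENSDARG00000043093 read 8.59 and 7.23 FPKM in kdrl:cxcr1 clutches 2 and 1, against 0.865 and 9.12 FPKM in wt clutches 2 and 1. For both entries the genotypes overlapped, and kdrl:cxcr1 was above wt in clutch 2 and below it in clutch 1. Their log2 differences were 0.00 (SE 0.61, limma adjusted p = 0.999) and 1.03 (SE 0.89, adjusted p = 0.795), and both turned negative with 1 library left out (to -0.84 without kdrl:cxcr1 clutch 2 and to -0.19 without wt clutch 2). The EPX and MPEG1 entries were taken up after their values were seen.

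The clutch comparison asked whether neutrophil and macrophage markers differed between clutch 2 and clutch 1. Both clutch 2 libraries listed more entries at 0, 43.5% and 42% against 31.9% in each clutch 1 library. Differences in detection and differences by clutch therefore cannot be told apart. Of the 7 tested entries, lyz and MFAP4 ENSDARG00000088745 were higher in both clutch 2 libraries than in both clutch 1 libraries (15.5% of all genes were), and 0 were lower in both (20.4% of all genes were). The log2 differences were 0.79 (SE 0.38) for lyz and 0.57 (SE 0.36) for that MFAP4 entry. They were 0.58 (SE 0.79) for npsn, 0.92 (SE 0.85) for cd68, 1.0 (SE 1.29) for c1qc, 0.31 (SE 0.64) for rac2 and -0.10 (SE 0.86) for MFAP4 ENSDARG00000090783. None passed limma's test, with adjusted p of 0.672 to 0.998 (3 genes passed over the whole table, 0.0169%), and 0 had an unadjusted p under 0.05 (9.2% of all genes did).

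Within kdrl:cxcr1 and within wt alike, 6 of the 7 tested entries were higher in clutch 2, but the amounts differed. In kdrl:cxcr1, clutch 2 exceeded clutch 1 by 1.54 for cd68 and 1.15 for lyz on the log2 scale, but by 0.03 for npsn. There MFAP4 ENSDARG00000090783 was higher by 0.71, and c1qc, at 0 in both libraries, could not move. MFAP4 ENSDARG00000088745 was higher by 0.67 in kdrl:cxcr1 and 0.46 in wt, and rac2 by 0.28 and 0.34. In wt, clutch 2 exceeded clutch 1 by 2.01 for c1qc, 1.13 for npsn, 0.44 for lyz and 0.30 for cd68, while MFAP4 ENSDARG00000090783 was lower by 0.92 (a log2 difference of -0.92). With 1 library per genotype and clutch, these differences have no replicate.

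Neutrophil and macrophage markers were then set against each other within each library, where the scaling of the library cancels in a ratio. Summed over npsn and lyz, the neutrophil level was 1287 and 889 FPKM in kdrl:cxcr1 clutches 2 and 1, against 712 and 442 FPKM in wt clutches 2 and 1. Summed over all MFAP4 entries, cd68 and c1qc, the macrophage level was 175 and 89.1 FPKM in kdrl:cxcr1 clutches 2 and 1, against 76.3 and 61.8 FPKM in wt clutches 2 and 1. Both sums were higher in both kdrl:cxcr1 libraries, and both were higher in clutch 2 within each genotype. These sums are not scaled. Median-of-ratios size factors were 1.12 and 1.1 in kdrl:cxcr1 clutches 2 and 1, against 0.931 and 0.96 in wt clutches 2 and 1. The order of the macrophage sums by genotype therefore depends on the scaling.

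The ratio of neutrophil to macrophage sums was 7.36 and 9.98 in kdrl:cxcr1 clutches 2 and 1, against 9.34 and 7.16 in wt clutches 2 and 1. It separated neither the genotypes nor the clutches. Weighting every marker equally gave another picture. The gap between the mean log2(FPKM + 1) of the neutrophil markers and that of the macrophage markers was 5.04 and 5.18 in kdrl:cxcr1 clutches 2 and 1, against 4.08 and 4.09 in wt clutches 2 and 1. The genotypes differed by 1.02 with a pooled SD of 0.0747 (n = 2 each). Clutch 2 and clutch 1 differed by -0.08, with a pooled SD of 0.726.

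The genotype difference in the gap rested on c1qc. Without that gene, the gap was 2.89 and 3.41 in kdrl:cxcr1 clutches 2 and 1, against 3.65 and 3.06 in wt clutches 2 and 1, and the genotype difference was -0.20. The genotypes overlapped then, as they did in the ratio of sums. When the wider gene lists were joined to the markers, the genotype difference was -0.33, and the clutch difference was -0.35. No p was computed for a score over markers chosen with earlier results known.

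**Figure D4:**
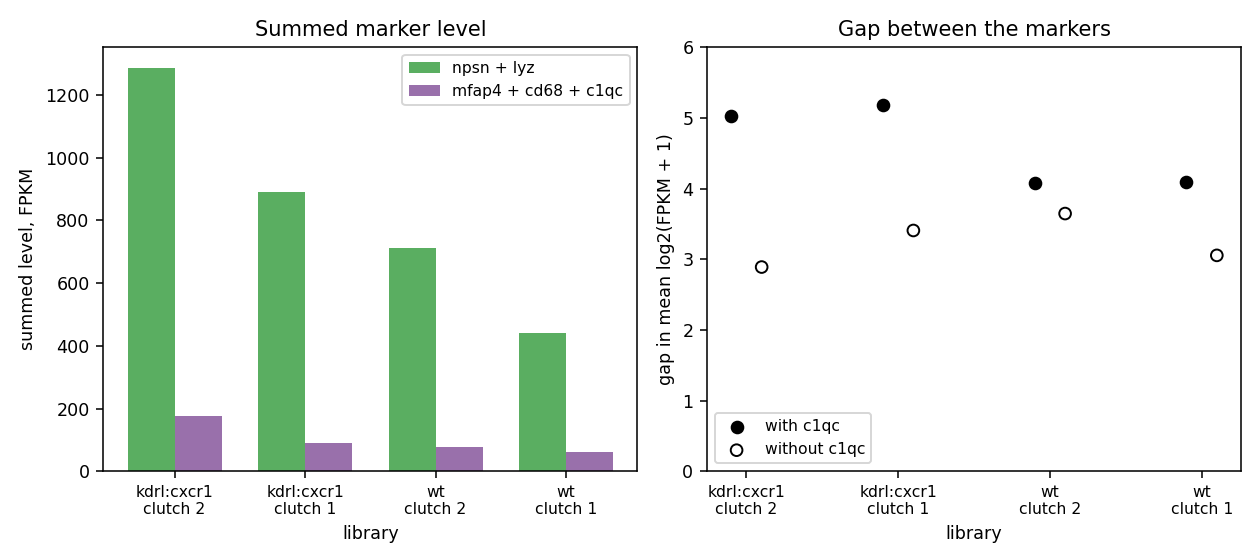
Left, summed FPKM of the neutrophil markers (npsn and lyz) and of the macrophage markers (all MFAP4 entries, cd68 and c1qc) in each library; right, the gap between their means in log2(FPKM + 1), with c1qc (filled) and without it (open). The filled points are 5.04 and 5.18 in kdrl:cxcr1 and 4.08 and 4.09 in wt, while the open points overlap between 2.89 and 3.65.

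Wider lists were described beside the markers by counts and medians. Of 21 further neutrophil genes 18 matched a symbol and 17 were tested. The most abundant were the collagenase gene mmp13a, srgn (the proteoglycan core of granules), the gelatinase gene MMP9 and the cytokine gene il1b. srgn read 192 and 81.5 FPKM in kdrl:cxcr1 clutches 2 and 1, against 90.4 and 74.8 FPKM in wt clutches 2 and 1. mmp13a read 121 and 115 FPKM in kdrl:cxcr1 clutches 2 and 1, against 54.9 and 150 FPKM in wt clutches 2 and 1. The genotypes overlapped for both genes.

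None of the 17 neutrophil genes passed the genotype test (0.0113% of all genes did), and 0 had an unadjusted limma p under 0.05 (6.8% of all genes did). Their genotypes overlapped for 15 genes, 0 were higher in both kdrl:cxcr1 libraries (26% of all genes were) and 2, NCF4 and CEBPB, were lower (13.6%). The genotype difference turned with the clutch. In clutch 2 kdrl:cxcr1 was higher than wt for 14 of the 17 genes, with a median of 0.45. In clutch 1 kdrl:cxcr1 was lower for 15 of the 17, with a median of -0.37. Relative to the median of all genes, these medians were 0.30 and -0.51. The NADPH oxidase gene cybb read 29.6 and 23.7 FPKM in kdrl:cxcr1 clutches 2 and 1, against 7.69 and 30.9 FPKM in wt clutches 2 and 1, and was chosen after its values were seen. Before the median of all genes was subtracted, npsn stood at 2.1 in clutch 1 and had no such turn. The lyz difference was 0.74 in clutch 2 and 0.03 in clutch 1, too near 0 to give a direction there.

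Of 26 further macrophage genes 21 matched and 18 were tested. The most abundant were the lysosomal protease genes LGMN and ctss2.1, the receptor gene csf1rb and havcr1, of the TIM family. csf1rb read 131 and 89.5 FPKM in kdrl:cxcr1 clutches 2 and 1, against 109 and 75 FPKM in wt clutches 2 and 1. havcr1 read 73.3 and 26.8 FPKM in kdrl:cxcr1 clutches 2 and 1, against 45 and 13.2 FPKM in wt clutches 2 and 1. For LGMN, csf1rb and havcr1 both clutch 2 libraries lay above both clutch 1 libraries, whereas the genotypes overlapped. The same clutch order held for 8 of the 11 tested endothelial genes (15.5% of all genes), so it was not particular to macrophage genes. Summed over matched genes, the wider neutrophil list read 934 and 642 FPKM in kdrl:cxcr1 clutches 2 and 1, against 578 and 868 FPKM in wt. The wider macrophage list read 830 and 474 FPKM, against 501 and 441 FPKM. The distance between neutrophil and macrophage levels therefore depended on the genes listed.

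Among the 18 macrophage genes 5 were higher in both kdrl:cxcr1 libraries (26% of all genes) and 1 was lower in both (13.6%). Of the 18, 0 passed the genotype test (0.0113% of all genes did) and 1 had an unadjusted limma p under 0.05 (6.8%). The 5 were ccl34b.1, IRF8, cxcr3.2, csf1ra and apoeb, and the 1 lower was ctss2.2. The chemokine gene ccl34b.1 had the smallest p of the list and read 67.6 and 20.6 FPKM in kdrl:cxcr1 clutches 2 and 1, against 7.81 and 3.78 FPKM in wt clutches 2 and 1 (log2 difference 2.57, limma adjusted p = 0.699). The list's median difference relative to all genes was 0.86 in clutch 2 and -0.12 in clutch 1. Before the median of all genes was subtracted, it was 1.01 and 0.02. The kdrl:cxcr1 library was higher for 14 of the 18 in clutch 2 and for 11 of the 18 in clutch 1. For marco, a scavenger receptor gene, the genotypes overlapped and the clutches did not. It read 44.8 and 33.4 FPKM in clutch 2 (kdrl:cxcr1 and wt), against 6.97 and 8.91 FPKM in clutch 1 (limma adjusted p = 0.383). These genes other than the 4 most abundant were picked after their values were seen.

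Of 24 genes of leukocytes in general 18 matched and 17 were tested. As for rac2, both kdrl:cxcr1 libraries were above both wt libraries for 9 of the 17 (26% of all genes), and 0 were below both (13.6%). The kdrl:cxcr1 library was higher for 16 of 17 in clutch 2 and for 13 of 17 in clutch 1, with medians relative to all genes of 0.39 and 0.23. CORO1A read 148 and 122 FPKM in kdrl:cxcr1 clutches 2 and 1, against 89.2 and 92.7 FPKM in wt clutches 2 and 1. fcer1gl, of the Fc receptor gamma chain family, read 252 and 76.9 FPKM in kdrl:cxcr1 clutches 2 and 1, against 54.6 and 69.3 FPKM in wt clutches 2 and 1. ARPC1B, of the Arp2/3 actin complex, read 184 and 135 FPKM in kdrl:cxcr1 clutches 2 and 1, against 126 and 185 FPKM in wt clutches 2 and 1, with overlap. The progenitor factor gene MYB read 94 and 82.1 FPKM in kdrl:cxcr1 clutches 2 and 1, against 74 and 52.4 FPKM in wt clutches 2 and 1. None of the 17 passed the genotype test (0.0113% of all genes did), and 1 had an unadjusted limma p under 0.05 (6.8% of all genes did).

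**Figure D5:**
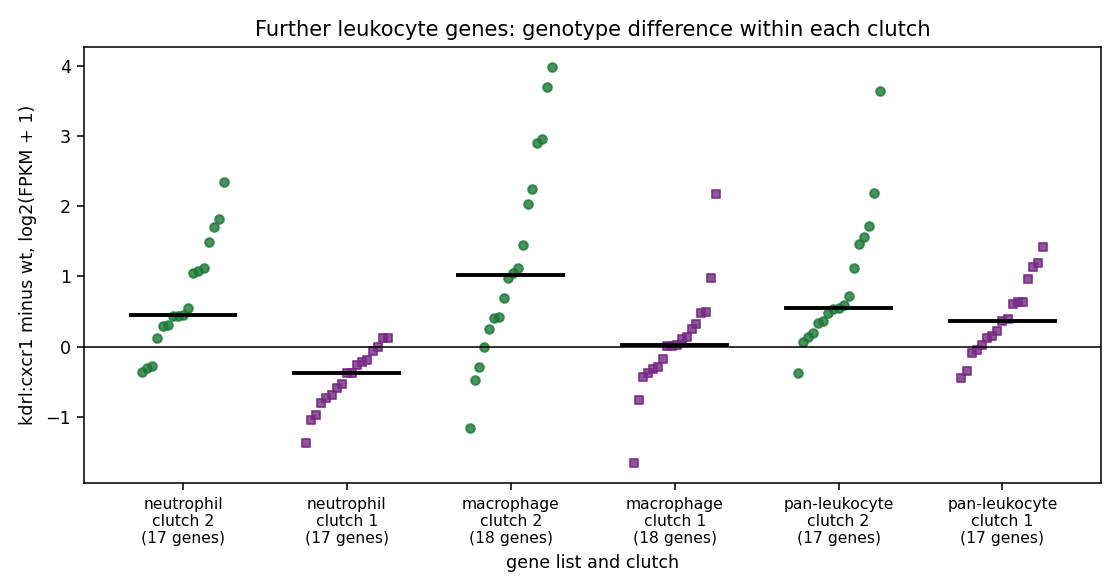
Difference in log2(FPKM + 1) between kdrl:cxcr1 and wt of the same clutch for the tested genes of the wider neutrophil, macrophage and pan-leukocyte lists, 1 point per gene, with the median as a bar (circles clutch 2, squares clutch 1). The neutrophil median is 0.45 in clutch 2 and -0.37 in clutch 1, while the pan-leukocyte medians are above 0 in both.

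By clutch, the medians of both phagocyte lists had opposite signs in the genotypes. In kdrl:cxcr1, clutch 2 was higher than clutch 1 for 14 of 17 neutrophil and 15 of 18 macrophage genes, with medians relative to all genes of 0.48 and 0.83. In wt, clutch 2 was lower than clutch 1 for 10 of 17 neutrophil and 10 of 18 macrophage genes, with medians of -0.78 and -0.26. Over both genotypes together, both clutch 2 libraries were above both clutch 1 libraries for 5 of 17 neutrophil and 5 of 18 macrophage genes (15.5% of all genes), and below for 1 of each list (20.4%). Among the 11 tested endothelial genes, 8 were above and 0 below. In both lists 0 genes passed the clutch test with limma (0.0169% of all genes did). At an unadjusted limma p under 0.05 were 0 neutrophil and 3 macrophage genes, against 9.2% of all genes. One of the 3, cd74b, was at 0 in clutch 2 and passed the filter through clutch 1 alone.

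Markers of other cell types moved in the same libraries, and their part in these results was not tested. Red cell genes (13 matched) summed to 1567 and 6704 FPKM in kdrl:cxcr1 clutches 2 and 1, against 1784 and 3175 FPKM in wt clutches 2 and 1, and 8 of 13 were higher in both kdrl:cxcr1 libraries (26% of all genes). Most of each sum was the globin gene hbae3, at 1348 and 6370 FPKM for kdrl:cxcr1 clutches 2 and 1, against 1580 and 2999 FPKM for wt clutches 2 and 1. Epidermal genes (15 matched) summed to 669 and 1092 FPKM for kdrl:cxcr1 clutches 2 and 1, against 1439 and 1174 FPKM for wt, and 6 of 14 tested were lower in both kdrl:cxcr1 libraries (13.6% of all genes). The endothelial sum was 701 and 577 FPKM in kdrl:cxcr1 clutches 2 and 1, against 982 and 577 FPKM for wt. Of 6 tested lymphoid genes, 3 were higher in both kdrl:cxcr1 libraries (26% of all genes) and 0 were lower in both (13.6%). RAG1 and RAG2, counted as higher, passed the filter through kdrl:cxcr1 alone. The 10 matched lymphoid genes summed to 77.3 and 67.9 FPKM for kdrl:cxcr1 and to 84.7 and 46.7 FPKM for wt. Among them cd4-1 and cd79b were listed at 0 in all 4 libraries, while cd79a read 1.86 and 4.07 FPKM for kdrl:cxcr1 clutches 2 and 1, against 52.4 and 0.402 FPKM for wt clutches 2 and 1. The blood cell regulator IKZF1 read 31.3 and 24.1 FPKM for kdrl:cxcr1 clutches 2 and 1, against 3.91 and 8.24 FPKM for wt clutches 2 and 1. It had the smallest genotype p of the tested lymphoid genes (limma adjusted p = 0.699) and lay outside the rule for naming genes. For cd79a, il7r and TOX the genotypes overlapped. Thrombocyte genes (5 matched) summed to 55.1 and 56.4 FPKM for kdrl:cxcr1 and to 49.6 and 35 FPKM for wt. Of these 5, 3 were higher in both kdrl:cxcr1 libraries (26% of all genes) and 0 were lower in both (13.6%).

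Likeness of pattern was measured as the root mean square difference of centred log2(FPKM + 1) over the 4 libraries, as a description. Among genes with a symbol, nearest to npsn were BAHCC1 (0.0781, place 1), osbpl2a (0.138, place 3) and SNRPG (0.156, place 4). Of the markers, rac2 was nearest to npsn (0.335, place 131 of 17722 genes), ahead of cd68 (0.613, place 1847), and lyz stood at 0.745 (place 4018). Nearest to mfap4, summed over its entries, were MRPL15 (0.0116), znf576.2 (0.019) and si:dkey-103m22.1 (0.0255). The marker nearest to mfap4 was lyz, a neutrophil gene (0.267, place 1593 of 17721), followed by rac2 (0.305, place 2193), while cd68 stood at 0.557 (place 7439). The 4 points share their genotypes and clutches across all genes.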

How the data were processed

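The authors deposited 1 table of FPKM values, 1 column for each of 4 libraries of sorted zebrafish cells. Cutadapt, TopHat2 2.0.11 and Cufflinks 2.2.1 with build GRCz10 are named in the submitters' processing notes. The annotation, filters, strand setting and any scaling across libraries were not given in the sources used here. Libraries were made with a low-input SMARTer kit, per the labels' protocols.

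Symbols for 26120 of 31951 identifiers came from a table of Ensembl names, matched without regard to case and printed as that table spells them. A marker with several entries is the sum of their FPKM. Values were analysed as log2(FPKM + 1), which understates fold changes of low genes, with limma 3.58.1 (R 4.3.3): moderated test with intensity trend, two-sided, Benjamini-Hochberg adjustment, threshold 0.05. Genes with at least 1 FPKM in at least 2 libraries were tested (17723).

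Genotype and clutch came from the titles. Libraries of the same clutch pair by label, and their deviations from the group means correlated at 0.116. The fit was tested on simulated data with the same noise for every gene, unlike these data. That does not show which changes it would miss here. Alternatives were other pseudocounts, filters, scalings and leaving out each library. Markers and lists were chosen with earlier results of these data known. Besides the markers, the rule named the 4 most abundant tested genes of each wider list. It also named the 3 tested genes with a symbol nearest to npsn and to mfap4.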

Additional observations from a re-analysis of the deposited data

Results flagged for a closer look

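Several results differed between the clutches in direction: kdrl:cxcr1 was above wt in clutch 2 and below it in clutch 1. With 1 library per genotype and clutch, the difference between clutches was not tested. On the log2(FPKM + 1) scale, the clutch 2 difference exceeded the clutch 1 difference by 1.13 for the peroxidase entry EPX. It did so by 2.66 for MPEG1 ENSDARG00000043093 and by 1.62 for MPEG1 ENSDARG00000055290. Among the abundant genes of the wider lists, the excess was 1.5 for ctss2.1, 1.49 for mmp13a, 0.99 for MMP9, 1.36 for il1b and 0.98 for ARPC1B. The median of the wider neutrophil list, relative to all genes, differed by 0.81 between the clutches, and that of the wider macrophage list by 0.98. The macrophage median was below 0 in clutch 1 only relative to all genes. Before that subtraction it was 0.02, with 11 of 18 genes higher in kdrl:cxcr1. None of the 7 tested marker entries changed direction between the clutches, but c1qc, at 0 in both kdrl:cxcr1 libraries, could not. The lyz difference was only 0.03 in clutch 1.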

How the results depend on the processing

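The count of genes past the genotype threshold (2) was 0 with a pseudocount of 0.1, without a filter, without the intensity trend, with the clutch as a replicate block, and without any 1 library (0 to 0). At an unadjusted p under 0.05, limma gave 1064, 1210, 1174 and 1458 genes in the first 4, and 353 to 1589 with 1 library left out, where the lone library is assumed to vary like the others. With the block, npsn, cd68, c1qc, rac2 and MFAP4 ENSDARG00000090783 had adjusted p = 0.598 by limma, and it called no marker. The clutch count (3) was 1 with a pseudocount of 0.1, without a filter or without the trend, and 0 to 15 with 1 library left out (15 without wt clutch 2, 11 without kdrl:cxcr1 clutch 2, 0 without either clutch 1 library).

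The genotype difference in the neutrophil minus macrophage gap (1.02) was 2.0 with a pseudocount of 0.1, 0.61 with 5, and 0.068 from summed FPKM. It changed sign to -0.20 without c1qc and to -0.33 with the wider lists, and was 0.95 to 1.1 with 1 library left out. The gap without c1qc overlapped between the genotypes: kdrl:cxcr1 was above wt in clutch 1 and below it in clutch 2. Alternatives chosen after seeing the data gave 0.75 with EPX and MPEG1 added, 0.75 with MFAP4 ENSDARG00000090783 alone and 0.44 with lyz alone. These alternatives, and the settings with 1 library left out, all kept c1qc, whose direction was fixed by the filter. They are therefore no support for a difference. The c1qc value of 0 in kdrl:cxcr1 makes the gap depend on the pseudocount.

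The 20 gene results had 238 alternatives, of which 18 reversed direction and 0 reached the threshold. MPEG1 ENSDARG00000055290 by genotype, at 0.00, was -0.22 with median-of-ratios scaling, -0.13 with quantile normalization and -0.0042 with a pseudocount of 0.1. The other reversals came with 1 library left out. By genotype the ranges were -0.19 to 0.96 (lyz), -0.015 to 0.66 (MFAP4 ENSDARG00000088745), -0.19 to 0.78 (EPX), -0.19 to 2.25 (MPEG1 ENSDARG00000043093) and -0.84 to 0.85 (MPEG1 ENSDARG00000055290). By clutch they were -0.47 to 1.63 (npsn), -1.28 to 1.08 (MFAP4 ENSDARG00000090783), -0.20 to 2.05 (cd68), -0.75 to 2.76 (c1qc), -0.32 to 0.94 (rac2), -0.83 to 0.028 (EPX) and -2.29 to 0.071 (MPEG1 ENSDARG00000043093). List medians relative to all genes ranged by genotype from -0.30 to 0.26 (neutrophil) and -0.084 to 0.75 (macrophage), and by clutch from -0.38 to 0.30, -0.21 to 0.74 and -0.053 to 0.54 (leukocyte). The cause was not tested. FPKM gives no depth, and 2 libraries a group limit precision.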
